A study of Rattus norvegicus with 22 samples.

Results

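Cell cycle and proliferation genes were examined in the nucleus accumbens (NAc) of rats exposed to ethanol (EtOH). The list held 38 gene symbols, of which 35 were among the 17310 symbols with read counts. Kif4a, Anln and Ncapg were not found under these symbols and were not analysed here. The members were chosen by their known function, after the fold change of Top2a between EtOH and water rats of experiment 1 had been seen to be large. The values of that contrast are therefore a description for every member, and no test of experiment 1 is used as evidence about them.

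RNA from the NAc of 22 adult male Wistar rats, an outbred stock, was sequenced as polyadenylated RNA in 2 experiments. In experiment 1, 5 control rats drank water only and 5 rats (EtOH) had a free choice between water and 6% v/v EtOH for 8 weeks. In experiment 2, all 12 rats drank 6% EtOH by choice, and all received gavage, that is, dosing by a tube into the stomach. Of these, 6 received EtOH gavage (a 30% v/v solution, 2.5 g/kg per dose, 2 doses a day). They drank by choice for 4 weeks before and 2 weeks after 3 weeks of gavage. The other 6 had access to EtOH over that period with 3 weeks of water gavage, so the controls of experiment 2 had also drunk EtOH. The study does not make clear whether these controls could drink EtOH in the gavage weeks. The rats were killed at the end of EtOH access, and core and shell of the NAc were dissected together, so that the tissue holds many cell types.

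A dividing cell first copies its DNA and then separates the copies. Genes for replication (the Mcm helicase, the sliding clamp Pcna, enzymes of nucleotide supply) act in S phase, and genes for chromosome condensation, the spindle and cytokinesis act in G2 and mitosis. Neurons of the adult striatum, of which the NAc is part, do not divide, whereas glial precursors and the progenitors lining the nearby lateral ventricle do. Several replication genes also serve DNA repair and are transcribed outside the cell cycle.

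The promoters of these genes are known for short shared elements, and 3 were searched on both strands: the cell cycle homology region (CHR, TTTGAA or TTCGAA), which is the binding element of the MuvB complexes that control G2 and mitotic genes, the CCAAT box, and E2F sites (TTTCCCGC, TTTGGCGC, TTTCGCGC or TTTGCCGC). Of the 35 members, 30 matched a promoter in RefSeq's table (GRCr8 build, 250 bases before to 50 after the start). The sequences below are shown as examples of these letters near the start of mitotic and replication members. Each line gives the 120 bases up to the start, 5′ to 3′ along the gene's strand, and the capitals mark CHR, CCAAT and E2F letters, which read as their reverse complement where they lie on the other strand.
Top2a (chr10:84473094-84473213, minus strand): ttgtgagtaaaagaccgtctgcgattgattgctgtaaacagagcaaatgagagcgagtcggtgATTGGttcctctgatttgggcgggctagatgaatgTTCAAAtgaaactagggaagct
Prc1 (chr1:143659361-143659480, plus strand): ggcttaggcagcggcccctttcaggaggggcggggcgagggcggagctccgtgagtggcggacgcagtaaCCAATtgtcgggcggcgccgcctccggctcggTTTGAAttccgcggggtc
Mki67 (chr1:199952594-199952713, minus strand): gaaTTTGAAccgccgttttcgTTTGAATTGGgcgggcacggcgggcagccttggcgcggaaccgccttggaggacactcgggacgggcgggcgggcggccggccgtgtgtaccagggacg
Mcm2 (chr4:122918095-122918214, minus strand): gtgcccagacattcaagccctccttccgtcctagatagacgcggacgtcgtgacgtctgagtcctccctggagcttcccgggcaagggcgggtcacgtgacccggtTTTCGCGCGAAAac
Mcm7 (chr12:22163179-22163298, minus strand): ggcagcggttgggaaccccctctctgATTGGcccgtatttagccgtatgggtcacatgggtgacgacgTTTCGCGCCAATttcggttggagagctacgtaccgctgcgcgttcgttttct

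In Top2a, which codes for the enzyme that untangles DNA before chromosomes separate, the CHR letters began 22 bases before the start and a CCAAT box 57 bases before it. Prc1, a bundler of microtubules between the separating chromosomes, had the same pair at 18 and 50 bases. In Mki67, which codes for the proliferation marker Ki-67, 2 CHR matches lay at 117 and 99 bases, and the second overlapped a CCAAT box by its last letter. Mcm2, a helicase subunit, had 2 E2F matches on opposite strands that overlapped, at 14 and 10 bases, and CHR letters farther out than the bases shown, at 215 and 175 bases. In Mcm7, another subunit, an E2F match at 52 bases overlapped a CCAAT box at 45 bases, and CHR letters lay at 241 bases, also outside the bases shown. CHR letters were present in 19 of the 30 member promoters (63.3%) and in 19.5% of all 27456 promoters of the same length, and CCAAT in 24 of 30 (80%) against 37.7%. E2F letters were present in 8 of 30 (26.7%) against 2.25%. By role, E2F letters were found in 6 of 8 replication members and in none of the 6 chromosome and 6 spindle members, whereas CHR letters were found in 6 of 6 and 5 of 6 of the latter groups and in 3 of 8 replication members, Mcm2 and Mcm7 among them. The mitotic control members had CHR letters in 5 of 9 and E2F letters in 1 of 9. Such a match describes the letters in this window and is no evidence of binding in these rats.

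The libraries of experiment 1 held 2962291 to 5247386 reads on genes and those of experiment 2 held 6713617 to 8765472. Reads that the counting assigned to no annotated feature are called reads outside genes here. They made up 48.4% to 51.1% in experiment 1 and 46.1% to 58.0% in experiment 2 of the reads on and outside genes. The counting options are not known, so where these reads lie was not determined. Levels are given as CPM, the reads of a gene per 1000000 reads on genes of that library, with TMM factors (edgeR's correction for differences in composition). They are not divided by gene length, so they are compared between rats and never between genes. The markers of striatal projection neurons were abundant in every rat, with 7 markers (Drd1, Drd2, Ppp1r1b, Adora2a, Penk, Tac1 and Pdyn) summing to between 2085 and 4168 CPM in experiment 1 and between 3247 and 5881 CPM in experiment 2. The experiments differed in library preparation (unstranded in the first, stranded in the second), sequencer and read length, so levels are compared within an experiment only.

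Most members had low counts. A gene was tested when enough rats of an experiment reached about 10 reads, which at the median library is 2.68 CPM in experiment 1 and 1.30 CPM in experiment 2. This left 25 members in the fit of experiment 1, and 29 members in that of experiment 2. The 6 members below it in both experiments were Mcm5, Rrm2, Cdk1, Birc5, Cdca3 and Hmgb2, and Ccna2, Bub1b, Cdc20 and Ect2 were also below it in experiment 1. In experiment 1, Mcm3, Aurkb, Plk1, Top2a and Kif11 reached this level in all 5 EtOH rats but in only 2 to 4 water rats, and Nusap1 in 4 EtOH rats and 1 water rat, so the EtOH group had a greater part in their passing. The 25 members that passed are therefore not a neutral sample of the list, and counts over all 35 are given beside theirs.

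In EtOH rats of experiment 1, 23 of the 25 tested members were at a higher level than in water controls. Among these, the greatest differences were in mitotic genes (Top2a, Nusap1, Cenpf and Prc1), whereas most tested replication genes differed by little. The median log2 fold change of the tested members was 0.30, beside -0.00 over all 10822 tested genes, of which 49.7% were above 0. The 2 members that were not higher were Aurka, a kinase of the spindle poles, with a log2 fold change of -0.37 (SE 0.25), and Fancd2, with -0.00 (SE 0.22). In a fit without the filter, 33 of all 35 members were above 0, with a median of 0.34, and they included the 10 members with too few reads. The largest value of that fit was that of the helicase subunit Mcm5, at 1.47 (SE 0.52), which rests on 101 reads and had 0 to 2.37 CPM in water rats and 1.69 to 6.66 CPM in EtOH rats. In the quasi-likelihood test of edgeR, with Benjamini-Hochberg adjustment over all genes, 0% of the genes of either experiment passed an FDR of 0.05 or 0.1. DESeq2 also called 0 at 0.05, with a lowest FDR of 0.0917 in experiment 1 and 0.698 in experiment 2. An unadjusted P below 0.05 was found for 6 members of experiment 1, each of them higher, where 5.86% of all tested genes were below it, 3.33% higher and 2.53% lower. This count is a description, because the list was chosen with this contrast known. It also includes Top2a, Kif11 and Nusap1, in whose passing of the filter the EtOH group had a greater part. Without the filter it was 7 of all 35 members, beside 820 of 14024 genes.

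**Figure D1:**
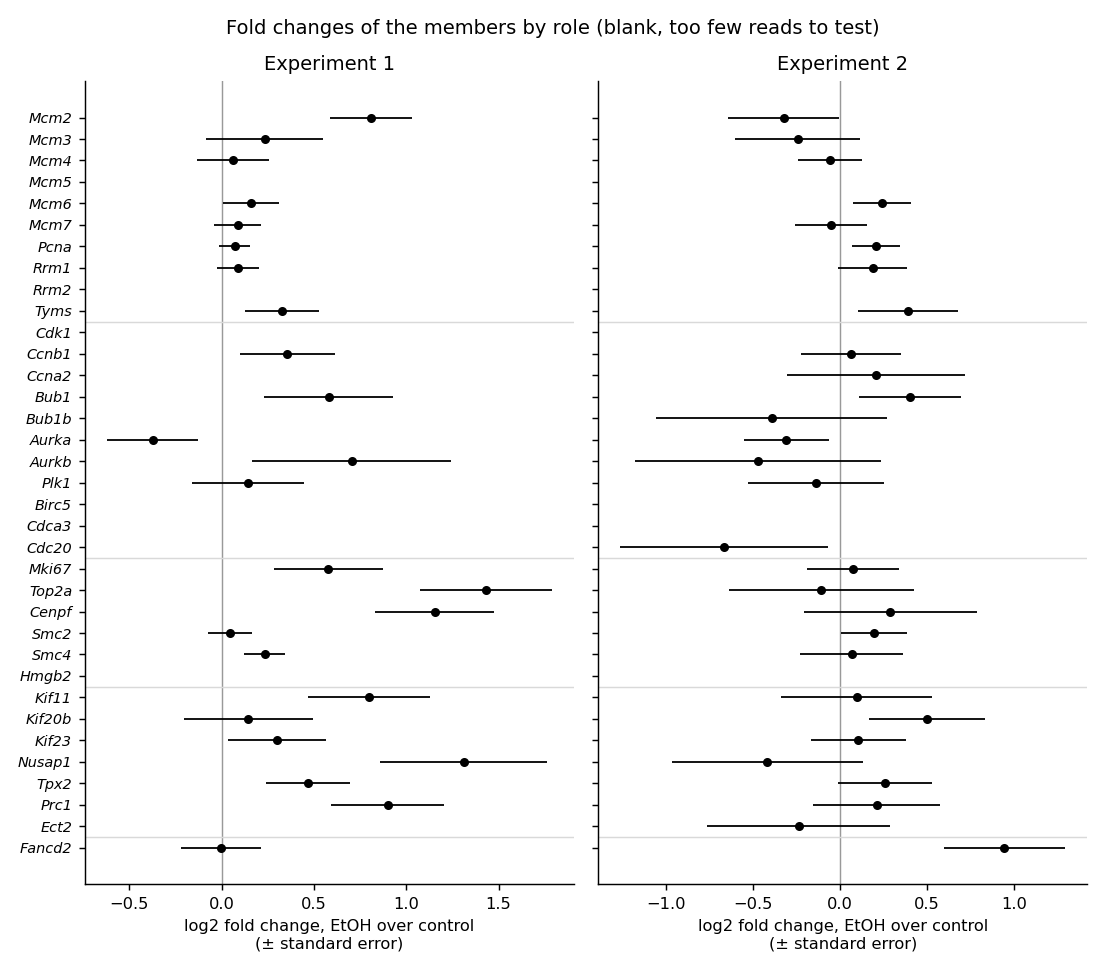
Log2 fold change (x axis, EtOH over control, with bars of 1 standard error) of each member, by role from replication at the top to repair at the bottom, in experiment 1 (left) and experiment 2 (right). In experiment 1, 23 of 25 points lie right of 0, with Top2a farthest at 1.43, and in experiment 2, 17 of 29 points do.

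Among chromosome genes, Top2a had 2.04, 10.7, 2.85, 5.84 and 10.6 CPM in water replicates 1 to 5 of experiment 1. In EtOH replicates 1 to 5 it had 11.2, 23.7, 23.2, 17.6 and 11.7 CPM. Each EtOH rat was above each water rat, by a narrow margin between 10.7 and 11.2 CPM. The means were 6.39 ± 4.11 CPM (SD, n = 5) and 17.5 ± 6.0 CPM (SD, n = 5), and the log2 fold change was 1.43 (SE 0.36). These values rest on 465 reads in 10 rats.

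Cenpf, a protein of the kinetochore by which chromosomes attach to the spindle, had 2.71, 7.47, 3.23, 6.87 and 8.83 CPM in water replicates 1 to 5. It had 6.44, 17.7, 16.8, 13.8 and 10.01 CPM in EtOH replicates 1 to 5. EtOH replicate 1 lay among the water rats and the other 4 above all of them, with a log2 fold change of 1.15 (SE 0.32). Mki67 had 4.75, 17.9, 10.1, 26.1 and 19.0 CPM in water rats, in order of replicate, and 16.6, 31.0, 26.0, 22.1 and 19.2 CPM in EtOH rats. The groups overlapped between 16.6 and 26.1 CPM, and the log2 fold change was 0.58 (SE 0.29). Smc2, a core subunit of the condensin complex, ran from 44.0 to 67.7 CPM in water rats and from 51.6 to 72.6 CPM in EtOH rats. Its log2 fold change of 0.04 (SE 0.12) was smaller than its standard error. Smc4, its partner in the complex, had 0.23 (SE 0.11).

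Among spindle and cytokinesis genes, Prc1 had 5.77, 23.7, 12.3, 11.7 and 27.4 CPM in water replicates 1 to 5. The EtOH rats had 18.3, 39.6, 28.3, 42.6 and 26.3 CPM, in order of replicate. A pair of water rats (replicates 2 and 5) lay inside the EtOH range, and the log2 fold change was 0.90 (SE 0.31). Nusap1, which stabilises spindle microtubules, was among the scarcest members, with 90 reads in the 10 rats. Water replicate 1 had 0 reads of it, which allows up to 1.02 CPM (3 reads, counting error only), and the other water rats had 0.759 to 2.75 CPM. The EtOH rats had 2.37 to 5.21 CPM, so the groups overlapped through water replicate 4, and the fitted log2 fold change was 1.31 (SE 0.45). The mitotic motor Kif11 had 0.80 (SE 0.33) and Tpx2, a nucleator of spindle microtubules, 0.47 (SE 0.23). Kif20b, a kinesin of cytokinesis, overlapped fully at 2.11 to 7.12 CPM in water rats and 2.66 to 6.77 CPM in EtOH rats. The 6 tested members of this role were all higher, with a median log2 fold change of 0.63, beside 0.58 for the 5 chromosome members. The EtOH group had a greater part in the passing of Nusap1, Kif11 and, among the chromosome members, Top2a. In the fit without the filter, the untested members of these roles, Ect2 and Hmgb2, were at 0.63 (SE 0.46) and 0.26 (SE 0.61).

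Among genes of mitotic control, Aurkb, the kinase of the chromosomal passenger complex, was the most variable member. It had 0.339, 7.73, 5.12, 1.72 and 16.9 CPM in water replicates 1 to 5, where 0.339 CPM is 1 read. The EtOH rats had 3.05, 20.3, 9.42, 11.4 and 11.4 CPM, and the groups overlapped widely with a log2 fold change of 0.70 (SE 0.54). Leaving out 1 rat moved it between 0.38 (without EtOH replicate 2) and 1.48 (without water replicate 5). Bub1, a kinase of the spindle checkpoint, had 0.58 (SE 0.35), the mitotic cyclin Ccnb1 0.36 (SE 0.26) and the mitotic kinase Plk1 0.14 (SE 0.30). The median over the 5 tested members of this role was 0.36. In the fit without the filter, its untested members were between 0.04 (Birc5) and 0.93 (Ccna2).

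The replication genes were all higher in EtOH rats (8 of 8 tested), but with a median log2 fold change of 0.12. The untested Mcm5 and Rrm2 were at 1.47 and 0.34 in the fit without the filter. Pcna had 44.8, 50.4, 53.0, 54.3 and 55.8 CPM in water rats and 53.2, 57.8, 55.4, 53.5 and 51.8 CPM in EtOH rats, in order of replicate. Apart from water replicate 1, the rats of both groups lay between 50.4 and 57.8 CPM, and the log2 fold change was 0.07 (SE 0.08). Among the tested replication genes, the exception in size was Mcm2, with a log2 fold change of 0.81 (SE 0.22). It was at 3.80 to 6.52 CPM in water rats and 6.65 to 9.44 CPM in EtOH rats. Top2a and Mcm2 were the 2 members whose groups did not overlap, both higher in EtOH rats, where 0.49% of all tested genes were higher and 0.416% lower without overlap. The other helicase subunits Mcm3, Mcm4, Mcm6 and Mcm7 had log2 fold changes of 0.06 to 0.23, Rrm1, the large subunit of ribonucleotide reductase, had 0.09 (SE 0.11) and Tyms, which makes thymidylate, 0.33 (SE 0.20).

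**Figure D2:**
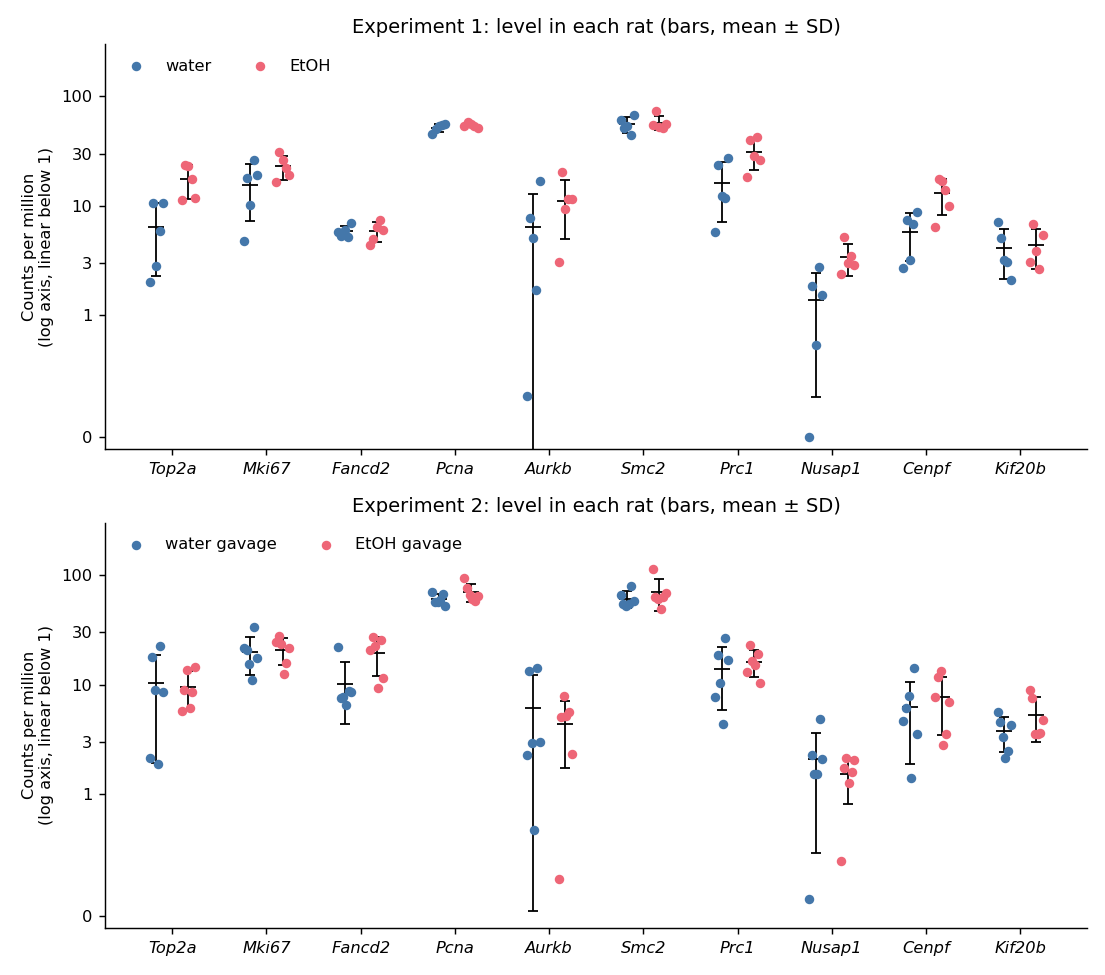
Level of 10 members in each rat (y axis, CPM on a log scale that is linear below 1), with water controls in blue and EtOH rats in red, and black bars for the mean ± SD (lower ends below the axis are cut). In experiment 1 (top) the Top2a points of the 2 groups do not overlap, and in experiment 2 (bottom) the points of each gene do.

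In experiment 2 the fold changes were mostly smaller and ran in both directions. Of 29 tested members 17 were higher and 12 lower in rats given EtOH gavage, with a median log2 fold change of 0.07 beside 0.00 over all 11069 tested genes (50.3% above 0). In the fit without the filter, 18 of all 35 members were above 0, and of the 6 untested members only Birc5 was, whereas Cdca3 had -0.84, Hmgb2 -0.61 and Mcm5 -0.24. None of the members had groups without overlap, where 0.0181% of all genes were higher and 0.00903% lower without overlap. An unadjusted P below 0.05 was found for 1 of the 29, Fancd2, beside 1.61% of all tested genes (0.912% higher and 0.696% lower), and the lowest FDR of any gene was 0.697. Because Fancd2 is a gene that the study itself lists in this experiment, its value is likewise a description.

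Top2a had 1.88, 8.65 and 22.6 CPM as the lowest, median and highest value after water gavage. After EtOH gavage it had 5.68, 8.74 and 14.5 CPM. The medians were close, and both the lowest and the highest rats were controls. The log2 fold change was -0.11 (SE 0.53, FDR = 0.927, edgeR). Its 95% interval, from -1.15 to 0.93, uses the normal distribution and is too narrow for so few rats. Without water gavage replicate 5, the rat at 22.6 CPM, the log2 fold change was 0.28.

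Prc1 had 4.36, 13.5 and 26.4 CPM after water gavage and 10.4, 15.8 and 22.9 CPM after EtOH gavage, again with the extremes in the controls. Its log2 fold change was 0.21 (SE 0.36, FDR = 0.791, edgeR). Cenpf had 1.41, 5.37 and 14.0 CPM against 2.82, 7.28 and 13.2 CPM, with 0.29 (SE 0.50, FDR = 0.791, edgeR). With 1 rat left out this ran from 0.06 (without EtOH gavage replicate 3) to 0.70 (without water gavage replicate 5). Mki67, at 10.9, 19.0 and 33.1 CPM against 12.5, 22.3 and 27.6 CPM, had 0.07 (SE 0.26, FDR = 0.900, edgeR). In each of these genes the groups overlapped.

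Nusap1 was lower rather than higher, with a median of 1.81 CPM after water gavage and 1.66 CPM after EtOH gavage and a log2 fold change of -0.42 (SE 0.55, FDR = 0.737, edgeR). It became 0.02 without water gavage replicate 5, the highest rat at 4.85 CPM. Aurkb had 0.706, 2.96 and 14.3 CPM against 0.299, 5.13 and 7.78 CPM. Its means, 6.10 ± 6.06 and 4.37 ± 2.65 CPM (SD, n = 6), ran opposite to its medians, and the log2 fold change was -0.47 (SE 0.71, FDR = 0.766, edgeR). It was -0.02 without water gavage replicate 5. Aurka had -0.31 (SE 0.25, FDR = 0.697, edgeR), Cdc20, an activator of the anaphase-promoting complex, -0.67 (SE 0.60, FDR = 0.697, edgeR), and Mcm2 -0.32 (SE 0.32, FDR = 0.697, edgeR).

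The members with the lowest P-values besides Fancd2 were Pcna and Kif20b. Pcna had 52.4, 57.7 and 69.4 CPM after water gavage and 58.1, 64.4 and 93.6 CPM after EtOH gavage, with 0.21 (SE 0.14, FDR = 0.697, edgeR). Kif20b had 2.12, 3.81 and 5.62 CPM against 3.51, 4.195 and 8.82 CPM, with 0.50 (SE 0.33, FDR = 0.697, edgeR). In both the groups overlapped. Smc2 had 52.1, 56.0 and 79.9 CPM against 49.1, 62.8 and 113 CPM, with 0.20 (SE 0.19, FDR = 0.697, edgeR).

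Fancd2, whose product is a central protein of the Fanconi anemia pathway for repair of DNA crosslinks, is also known as a gene of S phase. After water gavage it had 6.47, 8.08 and 21.8 CPM, and after EtOH gavage 9.29, 21.6 and 27.4 CPM, as the lowest, median and highest rat. One control (replicate 1) lay among the high EtOH rats, and EtOH gavage replicates 4 and 6 lay near the other controls, with no rat of either group between 11.4 and 20.8 CPM. The means were 10.1 ± 5.78 and 19.5 ± 7.48 CPM (SD, n = 6), and the log2 fold change was 0.95 (SE 0.35). It was 1.32 without water gavage replicate 1. With the share of reads outside genes as a covariate it was 0.67 (SE 0.28), and that share was 54.5% in water gavage replicate 1 and 58.0% and 56.4% in EtOH gavage replicates 1 and 2, the highest of the 12 rats. EtOH gavage replicates 3 and 5, at 22.5 and 25.6 CPM of Fancd2, had shares of 51.7% and 50.3%. Water gavage replicate 5 had a share of 52.8% and 8.74 CPM of Fancd2. The part of this share in the result was not tested. In experiment 1 the gene was at 4.41 to 7.45 CPM in all 10 rats.

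Across the 2 experiments, which share no rats, 25 members were tested in both. Of these, 15 were higher in the EtOH group of both, and 8 were higher in experiment 1 and lower in experiment 2. Another 1 was lower in experiment 1 and higher in experiment 2, and 1 was lower in both. As 23 of the 25 were higher in experiment 1, nearly any member higher in experiment 2 falls among the 15. The same count over all genes was not made, so the 15 are no measure of agreement between the experiments. The difference between the experiments was not tested.

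Summed over the 35 members, the level was 347 ± 45.6 CPM (SD, n = 5) in water rats and 431 ± 65.3 CPM (SD, n = 5) in EtOH rats of experiment 1, a ratio of 1.24. The water rats ran from 304 to 418 CPM and the EtOH rats from 345 to 523 CPM, so the groups overlapped. By role, the ratio was 1.63 for spindle and cytokinesis genes, 1.31 for mitotic control, 1.30 for chromosome genes and 1.11 for replication genes. In experiment 2 the sum was 405 ± 82.5 CPM after water gavage and 449 ± 78.0 CPM after EtOH gavage (SD, n = 6), a ratio of 1.11. By role, it was 1.13 for spindle and cytokinesis genes, 1.09 for chromosome genes, 1.11 for replication genes and 0.91 for mitotic control, where 5 of 8 tested members were lower (median log2 fold change -0.22). Of the roles, the replication genes weigh most in the sum over all members, at 159 of 347 CPM in the water rats of experiment 1. Because CPM are not divided by gene length, this does not rank the roles by expression. Between water and EtOH rats of experiment 1, the mean sum of the replication genes went from 159 to 177 CPM. That of the chromosome genes went from 110 to 143 CPM, of spindle and cytokinesis genes from 38.0 to 61.8 CPM and of mitotic control from 33.4 to 43.8 CPM. In experiment 2, replication genes went from 196 to 217 CPM and chromosome genes from 124 to 135 CPM.

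In these bulk samples, a change in the number of dividing cells and a change in RNA per cell cannot be told apart, and tissue from the ventricle wall would bring its own dividing cells. Marker lists of the cell types that could be present were therefore read in the same rats. In experiment 1, the summed level of 9 neuroblast markers (7 of 8 tested higher) was 244 to 304 CPM in water rats and 313 to 427 CPM in EtOH rats, without overlap. Of that list, Dcx, Dlx1 and Cd24 are among the genes the study lists for this experiment, so that the list is not independent of it. Their means were 145, 40.1 and 35.2 CPM in water rats and 190, 68.6 and 51.8 CPM in EtOH rats. The means of the whole sum were 276 and 369 CPM. The 3 ependymal markers, of the ciliated cells that line the ventricle, were all higher, and their sum was 6.44 to 42.4 CPM in water rats and 31.5 to 59.4 CPM in EtOH rats. Ccdc153 among them had a log2 fold change of 1.17 (SE 0.33, FDR = 0.672, edgeR).

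The sum of 5 neural progenitor markers (4 of 5 higher) was 130 to 172 CPM in water rats and 168 to 193 CPM in EtOH rats. That of 5 oligodendrocyte precursor markers (4 of 5 higher) was 367.7 to 413.2 against 413.8 to 489.8 CPM, without overlap but with a gap under 1 CPM. Of these, Pdgfra (means of 155 and 190 CPM) is likewise listed by the study for this experiment. The 7 projection neuron markers all had fitted log2 fold changes below 0, with sums of 2330 to 4041 CPM against 2085 to 4168 CPM. Microglial markers (2 of 5 higher) were at 261 to 313 against 262 to 288 CPM, endothelial markers (3 of 4 higher) at 185 to 222 against 212 to 240 CPM and erythroid markers (0 of 1 tested higher) at 38.1 to 125 against 50.03 to 115 CPM. No marker of these lists was at 0 in all rats of the experiment, and none passed the FDR threshold. The part of these cell types in the higher level of the mitotic members was not tested.

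In experiment 2, the neuroblast sum was 174 to 331 CPM after water gavage and 215 to 422 CPM after EtOH gavage (3 of 6 tested higher). Its means were 241 and 315 CPM, of which Dcx gave 144 and 209 CPM. The 3 markers with too few reads to test (Dlx2, Sp8 and Sp9) had lower means after EtOH gavage. The ependymal sum was 2.94 to 28.4 CPM against 4.79 to 13.2 CPM (0 of 2 tested higher), the neural progenitor sum 68.3 to 95.3 against 65.2 to 103 CPM (3 of 4 tested higher) and the oligodendrocyte precursor sum 248 to 296 against 226 to 288 CPM (1 of 5 higher). Of the remaining lists, 3 of 7 projection neuron, 1 of 5 microglial, 0 of 4 endothelial and 0 of 2 erythroid markers were higher.

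**Figure D3:**
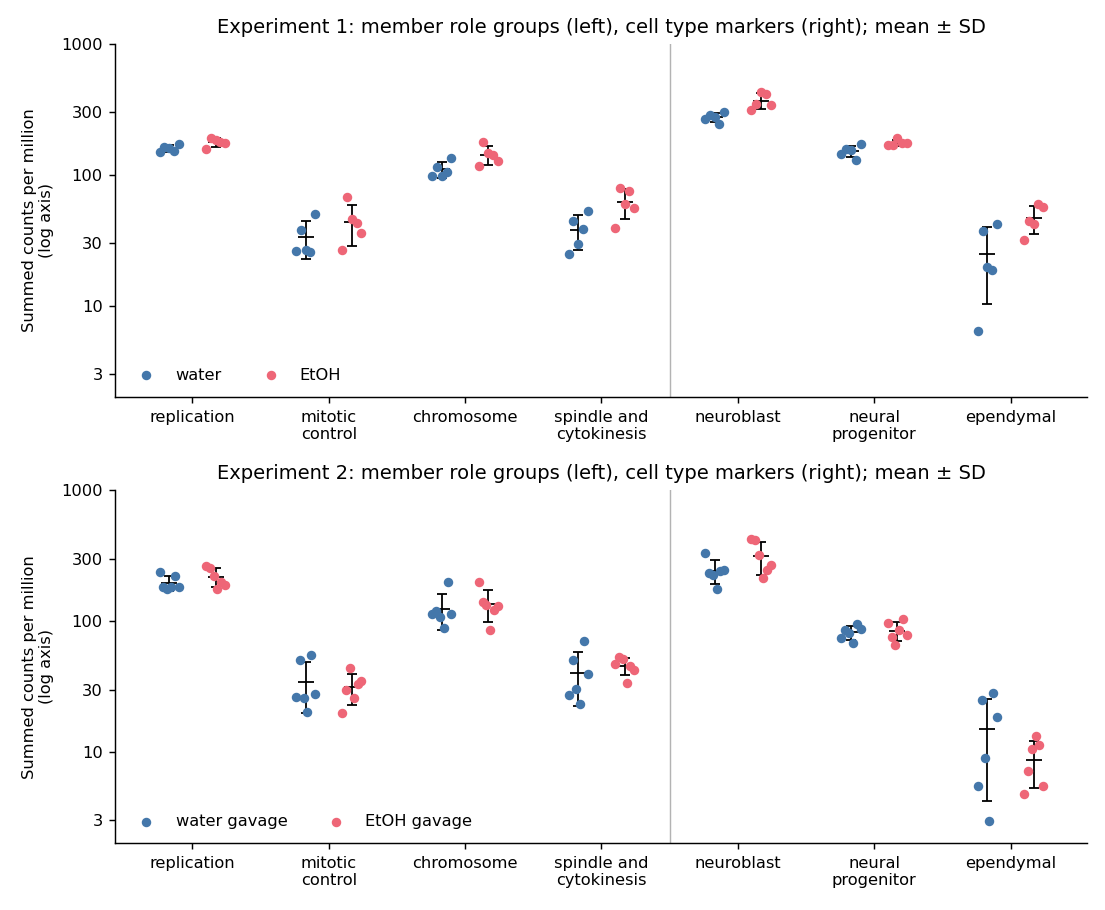
Summed level of the members of each role and of 3 marker lists in each rat (y axis, CPM on a log scale), with controls in blue and EtOH rats in red, and black bars for the mean ± SD. In experiment 1 (top) the neuroblast sums of the groups do not overlap (244 to 304 against 313 to 427 CPM), and the ependymal sums spread from 6.44 to 59.4 CPM.

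Several mitotic members had a wide spread between rats of the same group. It was taken as the biological coefficient of variation (BCV), the spread between rats of a group that remains after counting error. In experiment 1 the BCV was 62.6% for Aurkb, 36.9% for Top2a, 33.2% for Prc1, 31.4% for Mki67 and 31.2% for Cenpf, where the median over all tested genes was 11.2% and that over the members 17.5%. Pcna, at 7.31%, lay below its trend of 10.97%, and Smc2, at 12.5%, was near the median of all genes and above its trend of 10.77%. Genes with few reads have a higher BCV in general. The trend at the same level was 19.8% for Aurkb and 17.99% for Top2a, and 11 of 25 members lay above their trend, beside 3287 of 10822 genes.

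In experiment 2, in other rats, Aurkb and Top2a were again among the most variable members. The BCV was 82.3% for Aurkb, 72.0% for Bub1b, a spindle checkpoint kinase, and 63.0% for Top2a, and 19.1% for Pcna, beside a median of 28.7% over all genes and 36.6% over the members. The 90th percentile of all tested genes was exceeded by 10 of the 25 members in experiment 1 and by 8 of the 29 in experiment 2. These counts compare genes at different levels and carry no test.

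**Figure D4:**
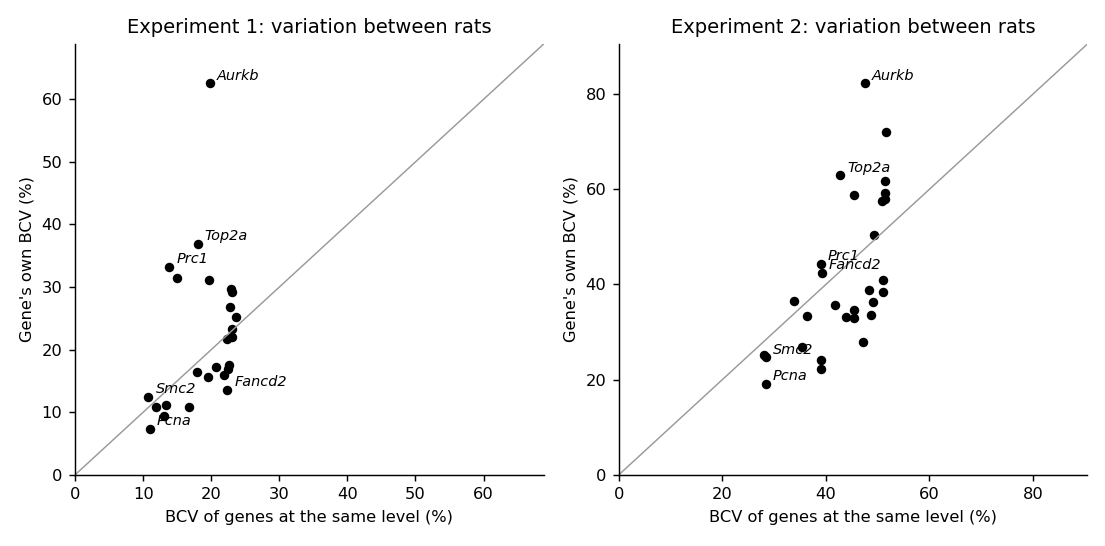
Variation between rats of the same group for each tested member (y axis, BCV in percent) against the trend over all genes at the same level (x axis, percent), with a grey line where both are equal. Aurkb and Top2a lie above the line in both experiments, at 62.6% and 36.9% in experiment 1, and Pcna lies below it.

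Rats that were low or high in Top2a were often so in other mitotic members, though not in each of them. In experiment 1, water replicate 1 had the lowest value of its group in 7 of the 10 members given by rat. These were Top2a, Mki67, Pcna, Aurkb, Prc1, Nusap1 and Cenpf. EtOH replicate 1 was also lowest in 7 of 10, and EtOH replicate 2 had the highest value in 8 of 10. Water replicate 1 and EtOH replicate 1 had the fewest reads of their groups (2962291 and 2967956). Water replicate 4, with 2979010 reads, was lowest in 2 of 10. The part of library size was not tested. In experiment 2, water gavage replicate 4 was lowest in 7 of 10 and water gavage replicate 5 highest in 7 of 10. With each value taken as its difference from the mean of its group (log2 CPM), Top2a and Cenpf had r = 0.94 and rho = 0.93 over the 10 rats of experiment 1 (permutation p = 0.00028 and 0.00059, adjusted over 34 relations p = 0.0095 and 0.010). Without the 2 rats farthest from the median of Top2a, r was 0.89. In experiment 2 (12 rats) r was 0.68 and rho 0.69 (adjusted permutation p = 0.12 and 0.14).

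Nusap1 had r = 0.78 and rho = 0.90 with Top2a in experiment 2 (adjusted permutation p = 0.023 and 0.010), and r = 0.76 and rho = 0.82 in experiment 1 (adjusted permutation p = 0.20 and 0.15). Prc1 had r = 0.86 and 0.78 in experiments 1 and 2 (adjusted permutation p = 0.10 and 0.12, rho = 0.83 and 0.66). Without the 2 farthest rats its r was 0.82 and 0.54. For Aurkb r was 0.73 in both (adjusted permutation p = 0.20 and 0.10, rho = 0.67 and 0.71). Pcna, in contrast, had 0.63 and -0.21 (adjusted permutation p = 0.30 and 0.67, rho = 0.48 and -0.21), and Smc2 0.09 and 0.05 (adjusted permutation p = 0.97 for both, rho = -0.02 and -0.04). Kif20b had r = -0.26 and -0.10 (adjusted permutation p = 0.77 and 0.93, rho = -0.05 and -0.08), and in experiment 1 water replicate 1 was the highest of its group in it and water replicate 5 the lowest. Of the 34 relations, only that with Cenpf in experiment 1 and that with Nusap1 in experiment 2 passed the adjusted threshold. Because Top2a, Nusap1 and Cenpf were named by their change in experiment 1, the relations of that experiment are a description.

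Markers were read against Top2a in the same way. The ependymal transcription factor Foxj1 had r = 0.80 in experiment 1 (rho = 0.73, adjusted permutation p = 0.17 and 0.26) and r = 0.30 in experiment 2 (rho = 0.22, adjusted permutation p = 0.67 and 0.77). Without the 2 rats farthest from the median of Top2a, r was 0.71 and -0.0092. In experiment 2 Foxj1 had too few reads to test (138 reads in 12 rats), so its r there rests on values near 0. The neuroblast gene Dcx had r = 0.02 and -0.32 (rho = -0.04 and -0.20, adjusted permutation p = 0.97 and 0.58). The rat lowest in Top2a in experiment 1, water replicate 1, also had the lowest ependymal sum, 6.44 CPM. The highest ependymal sums of experiment 1, 59.4 and 56.6 CPM, were those of EtOH replicates 4 and 5, with 17.6 and 11.7 CPM of Top2a. EtOH replicates 2 and 3, the highest in Top2a (23.7 and 23.2 CPM), had ependymal sums of 44.5 and 42.3 CPM. In experiment 2, water gavage replicates 5 and 2 had the highest Top2a (22.6 and 17.9 CPM) and the highest ependymal sums (28.4 and 25.1 CPM), and water gavage replicate 4 had the lowest of both (1.88 and 2.94 CPM). EtOH gavage replicate 6, in contrast, had 14.5 CPM of Top2a, the highest of its group, and an ependymal sum of 5.52 CPM. The part of ependymal or ventricular tissue in the spread of the mitotic members was not tested.

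**Figure D5:**
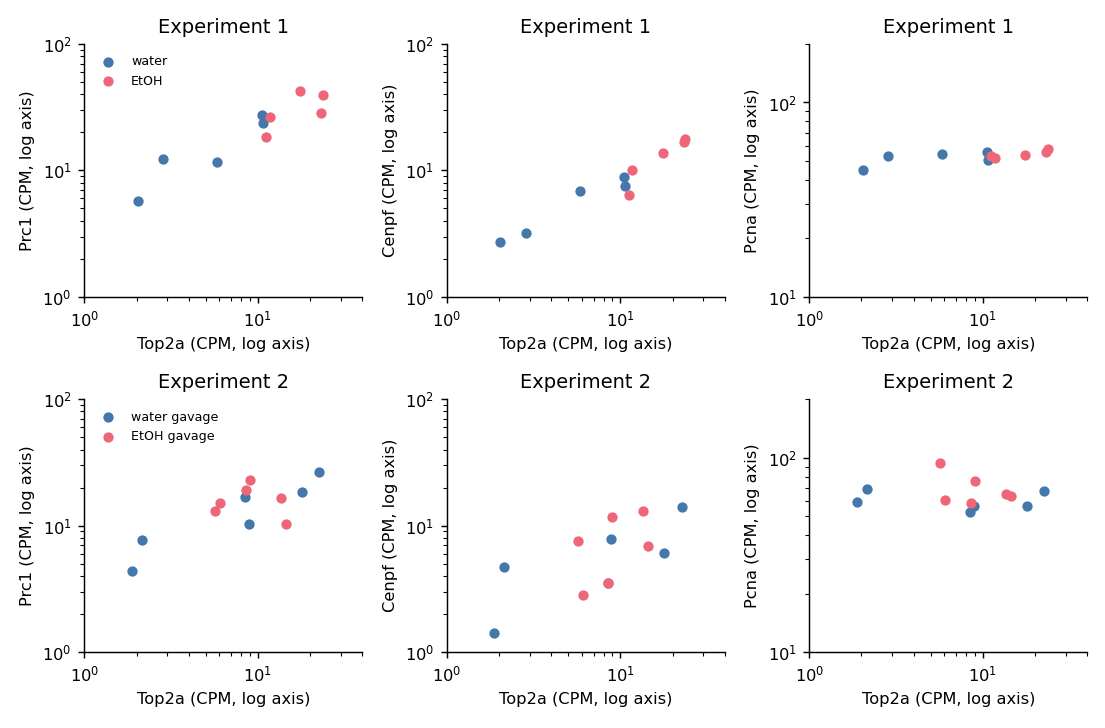
Level of Prc1, Cenpf and Pcna (y axes, CPM, log scale) against Top2a (x axis, CPM, log scale) in each rat of experiment 1 (top) and experiment 2 (bottom), with controls in blue and EtOH rats in red. Prc1 and Cenpf rise with Top2a in experiment 1, whereas Pcna stays between 44.8 and 57.8 CPM. The points are not taken as differences from their group means, so the difference between the groups is part of this rise.

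Other genes of the cell cycle outside the list were counted as a comparison, and none passed the FDR threshold in either direction in either experiment. Of 7 tested G1 cyclins and kinases, 3 were higher in experiment 1 (median log2 fold change -0.02), with the lowest P for the cyclin Ccnd2 at 0.41 (SE 0.15). Of 3 tested cell cycle inhibitors 2 were higher (median 0.15), with Cdkn1a, the p21 gene, at 0.61 (SE 0.25). E2F and pocket protein genes (5 of 9 higher, median 0.03), activators of mitotic genes and MuvB subunits (4 of 5, 0.04), origin firing genes (3 of 9, -0.09), checkpoint genes (4 of 8, 0.01) and other Fanconi genes (3 of 5, 0.10) had medians between -0.09 and 0.10 over their tested genes, beside 0.30 for the tested members. Of the genes in these lists with too few reads to test, all 6 origin firing genes (Cdt1, Cdc6, Cdc45, Mcm10, Orc1 and Gins1) had a higher mean CPM in EtOH rats of experiment 1, as did Chek2, Cdc25c, E2f7 and Cdk6, and 1 of 3 inhibitors. In experiment 2 the mean of 3 of these 6 origin firing genes was higher.

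In experiment 2 the medians of these lists were -0.20 for G1 cyclins and kinases (3 of 8 higher), 0.54 for inhibitors (3 of 4), 0.10 for E2F and pocket protein genes (6 of 9) and -0.17 for mitotic activators and MuvB subunits (2 of 5). They were 0.37 for origin firing genes (7 of 9), 0.27 for checkpoint genes (7 of 9) and 0.23 for other Fanconi genes (4 of 5). The lowest P of the inhibitors was that of Cdkn1c, the p57 gene, at 1.0 (SE 0.50, FDR = 0.697, edgeR), and that of the origin firing genes was Orc6, a subunit of the origin recognition complex, at 0.51 (SE 0.19, FDR = 0.697, edgeR).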

How the data were processed

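The authors sequenced polyadenylated RNA on an Illumina HiSeq (unstranded libraries in experiment 1, stranded in experiment 2) and deposited unnormalized read counts, per gene and rat. The submitters' processing notes name TopHat2 2.0.13, HTSeq 0.5.3p3 and 0.6.0 and the Rnor 6.0 build. The htseq-count options and annotation release are not given in the sources used here. The 5 summary lines that name no gene stayed out of library sizes and tests.

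The counts of each experiment were fitted on their own with edgeR 4.0.16 in R 4.3.3 (filterByExpr, TMM, glmQLFit, glmQLFTest), with Benjamini-Hochberg adjustment over all tested genes. The study's 50% base mean filter was an alternative, because it left 10 and 12 members. Standard errors follow from the F statistics. Each rat is a separate animal, and no replicates agreed within sampling noise (the closest pair had a chi-square per degree of freedom of 2.67). Correlations used log2 CPM with a prior count of 2 and 100000 permutations, two-sided. The members and all gene lists were chosen with earlier results of these data known. Values by rat were given for Top2a, Mki67 and Fancd2, the member with the most reads of each role, the 3 members with the largest change in experiment 1 and the 3 with the lowest P in experiment 2. Other members are named where a count or a role calls for it.

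Alternatives were DESeq2 1.42.0, its size factors, no filter, the base mean filter, a replicate block, a joint fit of all groups, the share of reads outside genes as covariate, and leaving out single rats. Fits were also run on simulated counts with 200 changed genes as a check of the code, with the outcome not given here. Counting intervals cover counting error only. Of the marker lists, 2 symbols were not found among the counted genes, and 1 further marker gene is not reported here.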

Additional observations from a re-analysis of the deposited data

Results flagged for a closer look

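In 92 groups of rats, scanned over the 10 members given by rat and the summed levels, 6 held 1 rat whose gap to the nearest other exceeded Dixon's 95% limit, where chance would give about 4.6. Fancd2 was at 21.8 CPM in water gavage replicate 1 and between 6.47 and 8.74 CPM in the other 5 rats of its group. Smc2 was at 72.6 CPM in EtOH replicate 2 of experiment 1, where the other 4 rats had 51.6 to 56.3 CPM. Smc2 was also high in EtOH gavage replicate 1, at 113 CPM against 49.1 to 68.2 CPM in the others. The chromosome genes summed to 199 CPM in water gavage replicate 5 and to 88.5 to 119 CPM in the others. The oligodendrocyte precursor markers were lowest in EtOH gavage replicate 6, at 226 CPM against 271 to 288 CPM. The microglial markers were highest in water replicate 2 of experiment 1, at 312.5 CPM against 261 to 276 CPM.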

How the results depend on the processing

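The number of members past an FDR of 0.05 was 0 in every fit of both experiments, and the lowest FDR of a member over the alternatives of experiment 1, rats left out included, was 0.102. With 1 rat left out, the median log2 fold change of the tested members ran from 0.24 to 0.39 in experiment 1 and from -0.033 (without water gavage replicate 4) to 0.25 (without water gavage replicate 5) in experiment 2, and the log2 ratio of the summed level from 0.24 to 0.39 and from 0.082 (without EtOH gavage replicate 1) to 0.26 (without water gavage replicate 5). For single members, 335 values under the other alternatives kept their direction and 11 turned, all in experiment 2 and none past the threshold. The cause was not tested. With the share of reads outside genes as a covariate, the log2 fold changes that turned were Mcm2 at 0.036, Rrm1 at -0.11, Ccnb1 at -0.11, Plk1 at 0.19, Mki67 at -0.18, Top2a at 0.066, Cenpf at -0.0071, Smc2 at -0.041, Smc4 at -0.27 and Kif23 at -0.019.

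The replicate number as a block turned Top2a of experiment 2 to 0.30. The labels do not say that the numbers pair the rats. The deviations of same-numbered rats correlated at -0.08 to 0.17 in experiment 1 and -0.64 to 0.77 in experiment 2. Only replicate 1 correlated best with its own number, in both experiments. Such correlations cannot exclude a pairing, for instance by order of handling. With the block, the lowest FDR over all genes was 0.102 and 0.553, and 8 and 1 members had an unadjusted P below 0.05. Over all genes, 660 and 489 did, against 634 and 178 without it.

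Leaving out 1 rat turned 34 of 598 single values. In experiment 1 the ranges were -0.10 to 0.072 for Fancd2, -0.075 to 0.40 for Kif20b, -0.039 to 0.14 for Mcm4, -0.020 to 0.36 for Plk1 and -0.059 to 0.13 for Smc2, with the lowest value of Kif20b, Plk1 and Smc2 without EtOH replicate 2. In experiment 2 they were -0.084 to 0.19 for Ccnb1, -0.55 to 0.098 for Ect2, -0.093 to 0.47 for Kif11, -0.12 to 0.027 for Mcm4, -0.23 to 0.066 for Mcm7, -0.051 to 0.28 for Mki67, -0.66 to 0.022 for Nusap1, -0.27 to 0.056 for Plk1, -0.16 to 0.33 for Smc4 and -0.33 to 0.28 for Top2a, with the highest value of Ect2, Kif11, Mki67, Nusap1, Smc4 and Top2a without water gavage replicate 5. Over all genes, P below 0.05 was found for 167 genes of experiment 1 in the joint fit and 523 to 975 with 1 rat left out. In experiment 2 it was found for 873 in the joint fit, 286 without a filter, 115 under the base mean filter, 251 in DESeq2 and 65 to 1048 with 1 rat left out. The median SE of a tested member was 0.26 and 0.32, and the common BCV over all genes was 11.6% and 34.4%.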

Other observations

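The gene next to Fancd2 in RefSeq's gene order, Emc3, a subunit of a membrane protein insertion complex, was looked up after the Fancd2 values had been seen. In experiment 2 it was at 231, 232, 236 and 241 CPM in water gavage replicate 1 and EtOH gavage replicates 1 to 3, at 195 CPM in water gavage replicate 5, and between 130.4 and 150.5 CPM in the other 7 rats. The first 4 of these rats are also among the 5 with Fancd2 above 20 CPM, and the fifth, EtOH gavage replicate 5, had 150.5 CPM of Emc3. Its log2 fold change was 0.24 (SE 0.20, FDR = 0.697, edgeR). On the other side of Fancd2, Fancd2os had too few reads to test, and Brk1, the next gene, was at 93.9 to 203 CPM with a log2 fold change of -0.11 (SE 0.17, FDR = 0.777, edgeR). In experiment 1 Emc3 was at 115 to 132 CPM in all 10 rats.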
